A study of Mus musculus with 4 samples.

Results

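The genes described here encode the proteins that turn newly made collagen chains into cross-linked fibres: the lysyl oxidases Lox, Loxl1 and Loxl2, the prolyl 4-hydroxylase subunits P4ha1 and P4ha2, the lysyl hydroxylases Plod1, Plod2 and Plod3, the collagen chaperone Serpinh1 and the procollagen processing enhancer Pcolce. They were found by symbol, as the probe sets whose only gene symbol in the platform annotation was a listed name. This gave 17 probe sets of 9 of the 10 genes, out of 34945 probe sets with 1 symbol on an array of 45101. Both probe sets that carry the name Loxl2 also carry another gene's name, so Loxl2 was not analysed here. All 9 remaining genes passed a floor on low signals, as did 12802 genes in all.

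Total RNA of tibialis anterior muscle was hybridised to 4 Affymetrix mouse expression arrays, 1 for each group: mdx/MMP-2 null mice at 3 months, mdx mice at 3 months, mdx/MMP-2 null mice at 1 month and mdx mice at 1 month, all labelled C57BL/6J. Every group carries mdx, the dystrophin mutation that models Duchenne muscular dystrophy. The mdx/MMP-2 null mice (labelled mdx/MMP-2-/-) also lack matrix metalloproteinase 2, a secreted enzyme that degrades denatured collagen and basement membrane. No wild-type muscle was measured, so growth and dystrophy cannot be told apart, and the sources used here do not say how many animals gave each RNA. With 1 array per group no difference between arrays has a replicate check or a test, and "higher" and "lower" describe these arrays.

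Collagen chains are modified inside the cell before they leave it. Prolyl 4-hydroxylase makes the hydroxyproline that stabilises the triple helix, lysyl hydroxylases prepare lysines for sugar attachment and cross-linking, and the chaperone HSP47, encoded by Serpinh1, binds the folded helix in the endoplasmic reticulum. Outside the cell, Pcolce speeds removal of the C-terminal propeptide by BMP-1, and lysyl oxidases convert lysines to aldehydes from which cross-links form. In muscle these proteins are made largely by fibroblasts, and dense cross-linked collagen is a feature of dystrophic fibrosis.

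The targeted gene was measured first. Mmp2 had a signal of 40.9 in mdx/MMP-2 null against 805 in mdx at 3 months, and of 24.7 in mdx/MMP-2 null against 986 in mdx at 1 month. The low signals lie on the arrays whose labels give the null genotype. Muscle fibre markers such as Acta1 and Ckm were all above the floor, with summed signals of 112516 to 115280 over the 4 arrays. They lie near the top of the signal range, where quantile scaling gives the arrays shared values. Myh4, for example, had 13596.2 on both arrays at 3 months, so near-equal values there are partly set by the scaling. Signals and their sums are quantile scaled MAS5 intensity before the floor, and differences are on the log2 scale after a floor of 17.4. The 3'/5' ratio of the Actb control (a gauge of how whole the RNA was) came to 2.09 (mdx/MMP-2 null) and 2.36 (mdx) at 3 months, and 1.05 (mdx/MMP-2 null) and 1.19 (mdx) at 1 month. That of the Gapdh control was 0.935 (mdx/MMP-2 null) and 0.936 (mdx) at 3 months, and 0.85 (mdx/MMP-2 null) and 0.883 (mdx) at 1 month.

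Across the 9 genes the mdx array at 3 months stood lowest. It held the lowest of the 4 signals for 8 of 9 genes, where it was lowest for 26.5% of all genes, and the exception, P4ha1, had practically equal signals in both arrays at 3 months. The highest signal lay at 1 month for 8 of 9 genes, in mdx/MMP-2 null for 2 (24.2% of all genes) and in mdx for 6 (22.5%). The largest spread between the highest and the lowest array was 2.14-fold, for Lox, and the smallest 1.35-fold, for Plod2. Of the 15 probe sets above the floor on all 4 arrays, 13 were lowest in mdx at 3 months, the exceptions being both probe sets of P4ha1.

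**Figure D1:**
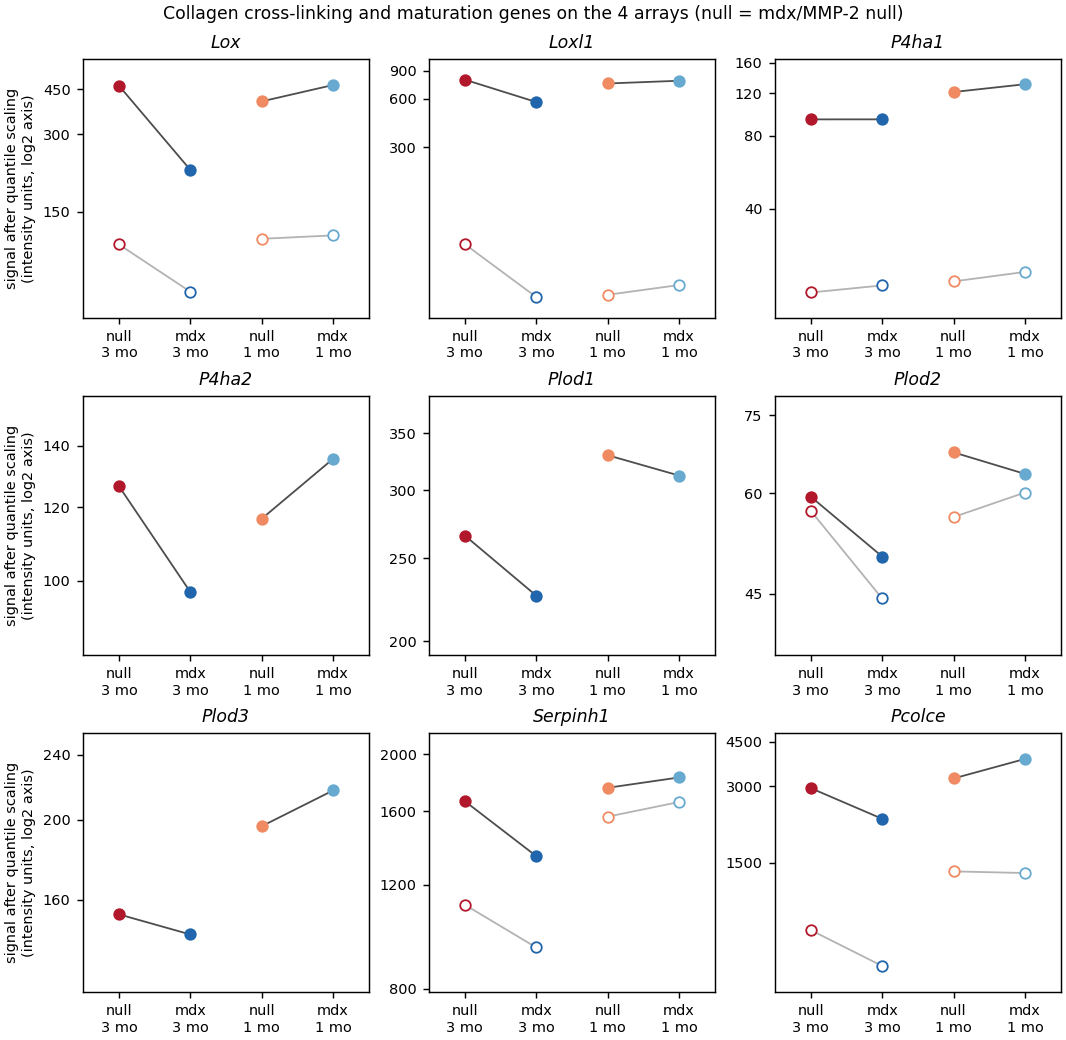
Signal of each gene on the 4 arrays after quantile scaling, in intensity units on a log2 axis, with mdx/MMP-2 null (null) left of mdx at each age. Filled points are the probe set used for the gene and open points its other probe set above the floor on all arrays. The mdx array at 3 months is lowest in 8 of 9 panels by the filled points.

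Lysyl oxidase stood apart from the rest in size. Lox, the founding enzyme of cross-link formation, gave 464 in mdx/MMP-2 null against 219 in mdx at 3 months, and 403 in mdx/MMP-2 null against 467 in mdx at 1 month. The 3 signals from 403 to 467 lay close together and the mdx array at 3 months alone was low. At 3 months Lox was thus 2.12-fold higher in mdx/MMP-2 null, a log2 difference of 1.09 that exceeded that of 99.1% of all genes, whereas at 1 month the difference was -0.21. Its second probe set gave 112 in mdx/MMP-2 null against 73.4 in mdx at 3 months, and 118 in mdx/MMP-2 null against 122 in mdx at 1 month. It ordered the mdx array at 3 months lowest too, but its difference of 0.61 at 3 months did not reach 2-fold, and the mean of both probe sets gave 0.85. Another Lox probe set was below the floor on every array.

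Loxl1, a related oxidase tied to elastic fibre assembly, gave 789 in mdx/MMP-2 null against 573 in mdx at 3 months, and 747 in mdx/MMP-2 null against 777 in mdx at 1 month. As for Lox, the mdx array at 3 months alone was low, and Loxl1 was the only member of the 9 with its highest signal in mdx/MMP-2 null at 3 months. The log2 difference between genotypes was 0.46 at 3 months and -0.06 at 1 month. A dimmer Loxl1 probe set gave 74.3 in mdx/MMP-2 null against 34.8 in mdx at 3 months, and 35.9 in mdx/MMP-2 null against 41.3 in mdx at 1 month. There the mdx/MMP-2 null array at 3 months was the odd one out, and the difference at 3 months was 1.09.

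The prolyl 4-hydroxylase subunits differed from each other. P4ha1, the widely expressed catalytic subunit, gave 93.6 in mdx/MMP-2 null against 93.6 in mdx at 3 months, and 121 in mdx/MMP-2 null against 131 in mdx at 1 month. Its signals separated by age and hardly by genotype, with differences of 0.00 at 3 months and -0.11 at 1 month. P4ha2, the alternative catalytic subunit, gave 127 in mdx/MMP-2 null against 97.2 in mdx at 3 months, and 117 in mdx/MMP-2 null against 135 in mdx at 1 month. P4ha2 separated the genotypes more than P4ha1 did, with a genotype difference of 0.38 at 3 months and -0.22 at 1 month. The other P4ha1 probe set lay just above the floor on all 4 arrays, at 18.1 or more.

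The lysyl hydroxylases were all lowest in mdx at 3 months. Plod1, which acts on helical lysines, gave 266 in mdx/MMP-2 null against 226 in mdx at 3 months, and 330 in mdx/MMP-2 null against 312 in mdx at 1 month. Plod2, which acts on telopeptide lysines and sets the type of cross-link, gave 59.4 in mdx/MMP-2 null against 50.1 in mdx at 3 months, and 67.5 in mdx/MMP-2 null against 63.4 in mdx at 1 month. Plod3, which also transfers sugars to hydroxylysine, gave 154 in mdx/MMP-2 null against 145 in mdx at 3 months, and 197 in mdx/MMP-2 null against 217 in mdx at 1 month. In all 3 genes both arrays at 3 months lay below both arrays at 1 month, and the genotype differences at 3 months were 0.23, 0.25 and 0.08 for Plod1, Plod2 and Plod3. The second Plod2 probe set, in which mdx/MMP-2 null at 3 months (57.1) lay just above mdx/MMP-2 null at 1 month (56.1), did not separate the ages. A second Plod1 probe set was above the floor on 2 arrays only.

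Serpinh1 and Pcolce were bright on all arrays. Serpinh1 gave 1664 in mdx/MMP-2 null against 1343 in mdx at 3 months, and 1754 in mdx/MMP-2 null against 1826 in mdx at 1 month. Pcolce gave 2954 in mdx/MMP-2 null against 2238 in mdx at 3 months, and 3226 in mdx/MMP-2 null against 3849 in mdx at 1 month. In both genes the mdx/MMP-2 null array at 3 months lay between mdx at 3 months and the arrays at 1 month. Their other probe sets placed it nearer to mdx at 3 months: that of Serpinh1 gave 1110 in mdx/MMP-2 null against 940 in mdx at 3 months, and 1567 in mdx/MMP-2 null against 1659 in mdx at 1 month. That of Pcolce gave 816 in mdx/MMP-2 null against 590 in mdx at 3 months, and 1390 in mdx/MMP-2 null against 1369 in mdx at 1 month. How much of the age difference was seen in mdx/MMP-2 null muscle therefore depended on the probe set for these genes.

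Promoter sequences were also searched for known motifs. For 6 of the 9 genes, P4ha1, P4ha2, Plod1, Plod3, Serpinh1 and Pcolce, the 250 bases before the RefSeq start (GRCm38.p6) were searched on both strands for ACGTG, the core of the hypoxia response element bound by HIF factors, and for GGGCGG, the GC box bound by Sp1. The first was found in 4 of the 6 windows, where 16.6% of 32851 mouse windows of that length held it, and the second in 5 of 6, against 32.7%. The sources used here held no window for Lox, Loxl1 and Plod2, so these counts leave those genes out. The 4 windows with ACGTG are given 5' to 3' along the gene, with the motif or its complement CACGT in capitals.
P4ha1, chr10:59323046-59323295, plus strand: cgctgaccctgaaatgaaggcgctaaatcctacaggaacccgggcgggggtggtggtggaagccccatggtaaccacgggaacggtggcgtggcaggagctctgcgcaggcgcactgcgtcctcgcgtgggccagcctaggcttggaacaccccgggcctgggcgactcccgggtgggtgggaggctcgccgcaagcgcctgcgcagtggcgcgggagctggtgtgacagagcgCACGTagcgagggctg
P4ha2, chr11:54100674-54100923, plus strand: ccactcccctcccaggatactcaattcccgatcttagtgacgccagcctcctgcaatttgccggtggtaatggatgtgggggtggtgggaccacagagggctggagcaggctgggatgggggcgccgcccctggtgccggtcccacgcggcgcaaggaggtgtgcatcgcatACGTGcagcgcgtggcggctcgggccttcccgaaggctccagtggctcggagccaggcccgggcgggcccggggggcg
Plod3, chr5:136986769-136987018, plus strand: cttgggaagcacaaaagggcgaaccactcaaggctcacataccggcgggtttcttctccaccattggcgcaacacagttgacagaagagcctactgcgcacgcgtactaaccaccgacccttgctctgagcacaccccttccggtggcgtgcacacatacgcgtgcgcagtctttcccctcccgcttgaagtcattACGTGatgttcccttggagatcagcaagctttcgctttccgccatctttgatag
Serpinh1, chr7:99353240-99353489, minus strand: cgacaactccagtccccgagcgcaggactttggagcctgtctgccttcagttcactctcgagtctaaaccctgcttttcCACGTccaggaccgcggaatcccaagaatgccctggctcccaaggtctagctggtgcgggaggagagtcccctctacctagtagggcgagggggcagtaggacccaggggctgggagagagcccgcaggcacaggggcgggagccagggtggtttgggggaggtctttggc
The motif starts 16 bases before the annotated start in P4ha1, 78 in P4ha2, 54 in Plod3 and 171 in Serpinh1. P4ha1 and P4ha2 are known hypoxia targets in cultured cells. A match of letters is a description and not a binding site.

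The comparison of genotypes at 3 months asked how these genes differ without MMP-2 in the older dystrophic muscle. Lox, Loxl1, Pcolce, P4ha2, Serpinh1, Plod2, Plod1 and Plod3 were higher in mdx/MMP-2 null, in that order of size, by 1.09 down to 0.08 on the log2 scale, and P4ha1 was level. The median of the 9 genes was 0.31, against 0.00 for all genes, and 8 of 9 lay above 0, where 47.6% of all genes did. Only Lox reached 2-fold, 1 of 9 genes, where 1.18% of all genes were at least 2-fold higher. With the deposited signals left unscaled all 9 genes were higher, with a median of 0.72 against 0.41 for all genes. With the mean of a gene's probe sets Plod1 lay marginally below 0.

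At 1 month the same comparison gave small differences. The 9 genes ranged from -0.25 (Pcolce) to 0.09 (Plod2), with a median of -0.11, and 7 of 9 lay below 0, where 48.4% of all genes did. None of the 9 genes reached 2-fold in either direction, where 0.578% of all genes were at least 2-fold lower and 73 of 12802 at least 2-fold higher. The directions of Loxl1, P4ha1, Plod1 and Plod2 turned under at least 1 other scaling or choice of probe sets, so at 1 month only Lox, P4ha2, Plod3, Serpinh1 and Pcolce were lower in mdx/MMP-2 null under every alternative run.

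**Figure D2:**
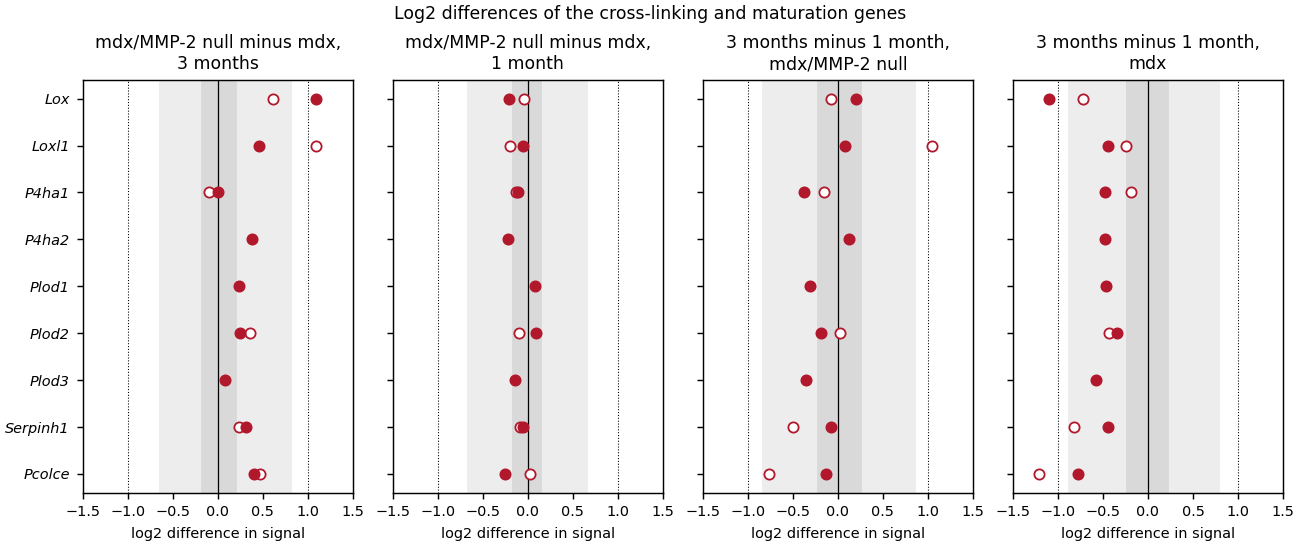
Log2 differences in signal for the 9 genes in the 4 comparisons. Filled points are the probe set used for the gene, open points its other probe set above the floor on all arrays, the light band the central 95% and the dark band the central 50% of all 12802 genes, and dotted lines 2-fold. By the filled points all 9 genes lie left of 0 for age in mdx, and Lox alone lies past 2-fold, at 3 months and for age in mdx.

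The comparison of ages in mdx/MMP-2 null muscle gave mixed directions. Lox (0.20), P4ha2 (0.12) and Loxl1 (0.08) were higher at 3 months, and Serpinh1 (-0.08), Pcolce (-0.13), Plod2 (-0.18), Plod1 (-0.31), Plod3 (-0.35) and P4ha1 (-0.37) were lower. The median was -0.13, 6 of 9 genes lay below 0, where 45.7% of all genes did, and none reached 2-fold, where 1.22% of all genes were at least 2-fold lower. With median scaling and with unscaled signals this median was 0.11 and 0.17, below the 0.19 and 0.26 of all genes under the same settings. The directions of Serpinh1, Pcolce and Plod1 turned under at least 1 alternative, and the second Lox probe set alone gave -0.07.

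In mdx muscle all 9 genes were lower at 3 months, where 47.7% of all genes were. Lox was 2.14-fold, Pcolce 1.72-fold, Plod3 1.49-fold, P4ha1 1.40-fold, P4ha2 1.39-fold, Plod1 1.38-fold, Serpinh1 1.36-fold, Loxl1 1.36-fold and Plod2 1.27-fold lower. The median log2 difference was -0.48, and it lay between -0.58 and -0.46 under the 8 alternatives in processing, with the direction of every gene kept under each. Only Lox passed 2-fold, 1 of 9 genes, where 1.55% of all genes were at least 2-fold lower, and with the mean of its probe sets Lox was at -0.91. At 1.5-fold 2 of 9 genes were lower, Lox and Pcolce, where 7.27% of all genes were. The second Pcolce probe set was lower by more than 2-fold, at -1.22. The Actb 3'/5' ratio given above was also higher at 3 months in both genotypes, and that of Gapdh differed far less; their part in the age differences was not tested.

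The mdx array at 3 months enters both the genotype difference at 3 months and the age difference in mdx, so a single low array would move both. The difference of the genotype differences, 3 months minus 1 month, was above 0 for 9 of 9 genes, where it was for 50.5% of all genes. It was 1.30 for Lox, 0.66 for Pcolce, 0.60 for P4ha2, 0.52 for Loxl1, 0.37 for Serpinh1, 0.22 for Plod3, 0.16 for Plod2, 0.15 for Plod1 and 0.11 for P4ha1. Lox alone reached 2-fold, where 2.91% of all genes did, and with the mean of its probe sets it gave 0.98. For Plod1 the mean of the probe sets, 1 of which lay near the floor, gave -0.29.

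The only test that these arrays allow is an additive model of genotype and age, fitted in limma over all genes with 1 residual degree of freedom per gene. In the age term all 9 genes had negative estimates, from -0.47 (Plod3, SE 0.16) to -0.18 (P4ha2, SE 0.21), and none passed, with Benjamini-Hochberg adjusted p of 0.333 to 0.720. At an unadjusted p of 0.05 limma called Plod3 and P4ha1, where 13.8% of all genes were called, and no gene of the array passed after adjustment (0.0%). With a variance prior that follows signal limma called 130 genes for age, 1.02%, none of them among the 9, whose lowest adjusted p was 0.218. In the genotype term the estimates ran from -0.05 (P4ha1) to 0.44 (Lox, SE 0.34), with adjusted p of 0.982 to 0.997, 0 of 9 at an unadjusted p of 0.05 (4.39% of all genes) and 0.0% of all genes after adjustment. An additive model cannot describe genes whose genotype difference turns between ages, as that of Lox did.

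The collagens on which these proteins act were set beside them. Col1a1, the main chain of type I collagen, gave 2434 in mdx/MMP-2 null against 1823 in mdx at 3 months, and 3680 in mdx/MMP-2 null against 4321 in mdx at 1 month. The age differences of Col1a1 and Col5a1 were -0.60 and -0.67 for mdx/MMP-2 null, against -1.24 and -1.14 for mdx, and Col5a2 gave 1747 (mdx/MMP-2 null) and 1418 (mdx) at 3 months, and 2650 (mdx/MMP-2 null) and 2829 (mdx) at 1 month. All 5 collagens were lower at 3 months in both genotypes, whereas Lox, Loxl1 and P4ha2 were lower in mdx only by the probe sets used. That difference between genes has no test. The second Lox probe set was also lower in mdx/MMP-2 null, by -0.07, while the second Loxl1 probe set was higher there, by 1.05. The chains Col1a2 and Col3a1 differed less, with -0.45 and -0.23 in mdx. Their signals were 8108 or more on every array, near the top of the range. The part of quantile scaling in their smaller differences was not tested.

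**Figure D3:**
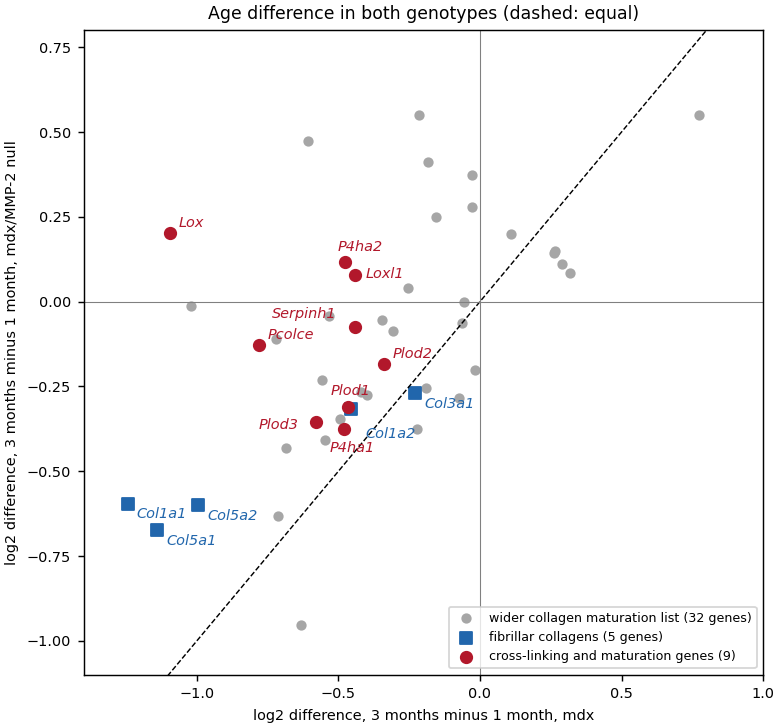
Age difference (3 months minus 1 month, log2) in mdx/MMP-2 null on the vertical axis against that in mdx on the horizontal axis. Each gene has 1 point, from the probe set used for it. All 9 cross-linking and maturation genes lie left of 0 and above the dashed line of equal differences, and Lox lies farthest from that line among them, at 0.20 for mdx/MMP-2 null against -1.09 for mdx.

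A wider list of 39 genes of collagen modification, folding, secretion and processing showed how far the pattern went. Of these, 35 had a probe set of their own and 32 exceeded the floor, Loxl4, Tll1 and Tll2 being at the floor on all arrays. In mdx the age difference was below 0 for 26 of 32 (median -0.22), against 47.7% of all genes, and the mdx array at 3 months was lowest for 18 of 32, against 26.5%. The genotype difference at 3 months was above 0 for 22 of 32 (median 0.09), against 47.6% of all genes, with none at or past 2-fold. The additive limma fit called 0 of 32 for age and for genotype after adjustment, and 6 of 32 for age at an unadjusted p of 0.05, a share near the 13.8% of all genes.

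Among its prolyl 3-hydroxylases, P3h1, the subunit that partners Crtap, gave 47.3 in mdx/MMP-2 null against 38.6 in mdx at 3 months, and 47.7 in mdx/MMP-2 null against 78.3 in mdx at 1 month. P3h1 was 2.03-fold lower at 3 months in mdx, the only gene of the list past 2-fold, and it was the mdx array at 1 month that stood apart. P3h2 was 1.82-fold higher in mdx/MMP-2 null at 3 months (53.6 against 29.5 in mdx), and Crtap itself had age differences of -0.11 for mdx/MMP-2 null against -0.72 for mdx. The oxidase Loxl3 gave 127 in mdx/MMP-2 null against 91.3 in mdx at 3 months, and 91.2 in mdx/MMP-2 null against 139 in mdx at 1 month. Loxl3 thus turned between ages as Lox did, with a genotype difference of 0.47 at 3 months and -0.61 at 1 month.

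The other named genes of the list did not share 1 course. Tgm2, the tissue transglutaminase, gave 1536 in mdx/MMP-2 null against 1006 in mdx at 3 months, and 1186 in mdx/MMP-2 null against 1025 in mdx at 1 month. The mdx/MMP-2 null array at 3 months stood highest for Tgm2, and the mdx array at 3 months was lowest, close to mdx at 1 month. Pxdn, the peroxidasin that cross-links collagen IV, was lower at 3 months in both genotypes, with -0.95 for mdx/MMP-2 null against -0.63 for mdx. Fkbp7, a prolyl isomerase of the endoplasmic reticulum, was lower by a like amount in both (-0.63 for mdx/MMP-2 null against -0.71 for mdx). Phgdh, which starts serine and glycine synthesis, was 1.54-fold higher in mdx/MMP-2 null at 3 months, Klhl12, an adaptor for procollagen secretion, was higher at 3 months in both genotypes (0.55 for mdx/MMP-2 null against 0.77 for mdx), and Adamts3, a procollagen N-proteinase, stayed near the floor at up to 25.4.

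Markers of several other cell types also differed between the arrays. In bulk muscle, fewer cells of a type and less RNA per cell cannot be told apart. For all genes, 47.6% were higher in the null at 3 months and 48.4% were lower in the null at 1 month. With age in mdx, 47.7% of all genes were lower. Of 14 measured fibroblast markers, 13 had more signal in the null than in mdx at 3 months (median 0.17), Dpp4 being at the floor on both arrays, and 11 had less signal at 3 months than at 1 month in mdx (median -0.41). Their summed signal was 33987 in mdx/MMP-2 null against 31246 in mdx at 3 months, and 31465 in mdx/MMP-2 null against 31224 in mdx at 1 month, with Tcf21 at the floor throughout. Gsn made up a large part of these sums and was 1 of 3 markers with more signal at 3 months in mdx. It gave 11618 in mdx at 3 months against 7445 in mdx at 1 month, so the sums do not follow most of the markers. At 3 months all 16 macrophage markers gave more signal in the null, by a median of 0.65, and they summed to 12347 in mdx/MMP-2 null against 8075 in mdx at 3 months, and 10520 in mdx/MMP-2 null against 11250 in mdx at 1 month. Of 13 measured tendon and cartilage markers, 11 had less signal at 3 months than at 1 month in mdx (median -1.01), and 10 had less in the null than in mdx at 1 month. Neutrophil markers, 6 of 8 measured with Ltf and Cxcr2 at the floor, summed to 674 in mdx/MMP-2 null against 112 in mdx at 3 months, and to 202 in mdx/MMP-2 null against 180 in mdx at 1 month. S100a8 (343) and S100a9 (216) made up most of the sum of 674. At 3 months 4 neutrophil markers were higher in the null (median of the 6, 1.46), Mpo was lower and Camp was at the floor on both arrays. The tendon and cartilage sum was 4570 in mdx/MMP-2 null against 4310 in mdx at 3 months, and 5091 in mdx/MMP-2 null against 5576 in mdx at 1 month, with Matn1 at the floor. Col2a1, the main collagen of cartilage, was below the floor on both arrays at 3 months and gave 29.8 in mdx/MMP-2 null against 174 in mdx at 1 month. Satellite cell markers had medians near those of the 9 genes, 0.26 between genotypes at 3 months (6 of 7 higher in the null) and -0.47 for age in mdx (7 of 7 lower). They summed to 1784 in mdx/MMP-2 null against 1360 in mdx at 3 months, and 1631 in mdx/MMP-2 null against 1815 in mdx at 1 month. Endothelial markers went the other way between genotypes at 3 months, with a median of -0.22 (7 of 10 lower in the null), and 9 of 10 were lower with age in mdx (median -0.59). Their sum was 1633 in mdx/MMP-2 null against 1724 in mdx at 3 months, and 2665 in mdx/MMP-2 null against 2461 in mdx at 1 month. The medians between genotypes at 3 months and for age in mdx were -0.00 and -0.12 for 7 smooth muscle and pericyte markers, 0.32 and -0.19 for 3 adipocyte markers and 0.07 and -0.44 for 3 Schwann cell and nerve markers. The part of these cells in the differences of the collagen genes was not tested.

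**Figure D4:**
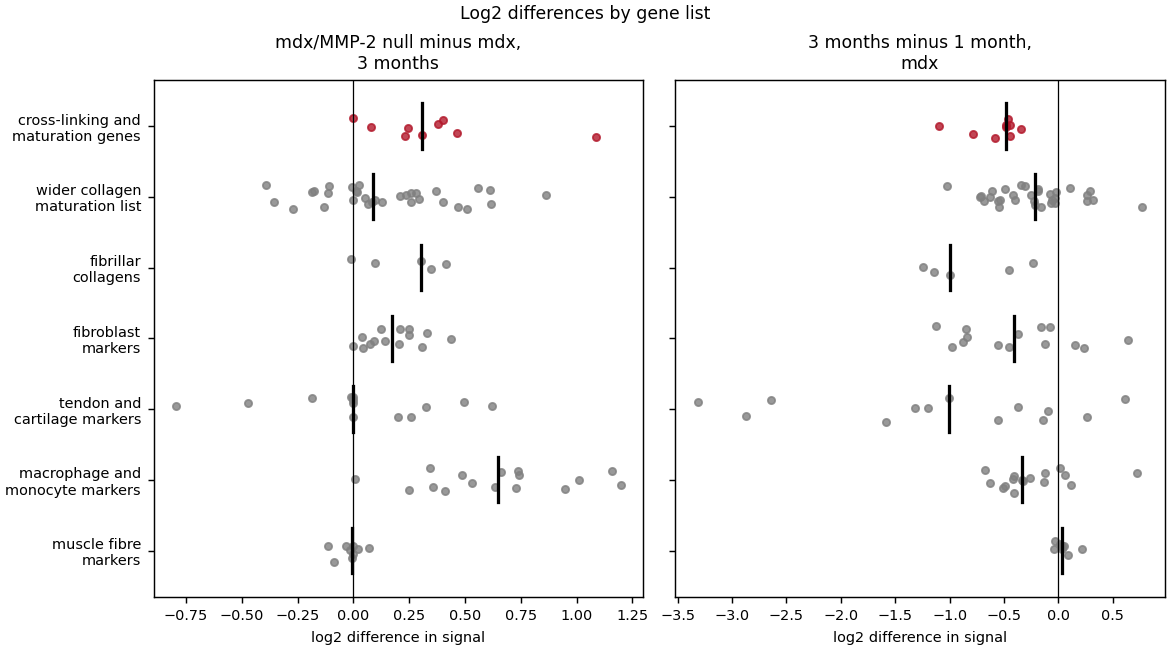
Log2 differences by gene list, for mdx/MMP-2 null minus mdx at 3 months (left) and for 3 months minus 1 month in mdx (right), 1 point per gene with a small vertical offset and a bar at the median. The cross-linking and maturation genes have medians of 0.31 and -0.48, beside 0.17 and -0.41 for fibroblast markers and 0.65 and -0.33 for macrophage markers. Muscle fibre markers lie near 0, but their signals are near the top of the range, and the part of quantile scaling in this was not tested.

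Genes with the most similar course were sought among 10372 named genes above the floor on all 4 arrays, by the distance between log2 signals centred on each gene's mean. Nearest to the mean profile of the 9 genes were Ccdc80, Fip1l1, Ctnnal1, Sap130, Tuba1a, Mettl7a2, Vasp and Rgs10, at distances of 0.02 to 0.05. Ccdc80, a secreted matrix-binding protein, gave 708 in mdx/MMP-2 null against 564 in mdx at 3 months, and 779 in mdx/MMP-2 null against 833 in mdx at 1 month. Serpinh1 was the member nearest to that mean profile (0.09) and Lox the farthest (0.53). Nearest to Lox were Rfc5, Rasa2, Ctdspl, Syk and Pop1, at distances of 0.12 to 0.16, all with signals of at most 88.2. With 4 arrays such likeness describes a shape only.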

How the data were processed

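Groups were taken from the sample titles, with 1 array for each of 4 groups. The authors deposited linear MAS5 intensity, 1 value a probe set. Expression Console is the tool that the submitters' processing notes name, and neither its version nor its target was given in the sources used here. No common target shows in the values, whose 2% trimmed means came to 123.6 (mdx/MMP-2 null) and 91.3 (mdx) at 3 months, and 98.4 (mdx/MMP-2 null) and 92.1 (mdx) at 1 month.

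Quantile normalization used limma 3.58.1 (R 4.3.3). A floor of 17.4, the 50th percentile of non-control signals, was then set and log2 taken. A gene was represented by its brightest single-symbol probe set by mean log2. Genes at the floor on all arrays were left out. Of 18193 genes, 12802 remained. Differences at or past 2-fold were counted. The additive fit used lmFit and eBayes with Benjamini-Hochberg adjustment. The pipeline was tested on simulated data. Tables and figures were made in Python 3.11.15 with pandas 2.3.3 and matplotlib 3.10.9. With 1 array per group, the number of arrays limits the precision.

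The members and the lists were chosen with earlier results of these data known. All 9 measured members were named whatever their values. Of the wider list, genes at or past 2-fold and the 3 with the largest difference in each comparison were named; genes at the floor are named as such. Of the genes most alike, 8 to the mean profile and 5 to Lox were named. Fmod stands in both the wider list and the tendon list. Alternatives were median, cyclic loess and no scaling, a floor lowered to the 40th or raised to the 60th percentile, a pseudocount of 4.36 in place of the floor, averaging a gene's probe sets, leaving out _x_at and _s_at probe sets, a 1.5-fold threshold and a variance prior that follows signal. Gene positions were not used, apart from the RefSeq promoter windows.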

Additional observations from a re-analysis of the deposited data

Results flagged for a closer look

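For 6 genes the genotype difference had opposite signs at the 2 ages by the probe sets used, higher in mdx/MMP-2 null at 3 months and lower at 1 month. The difference between the 3-month and the 1-month value was 1.30 for Lox, 0.66 for Pcolce, 0.60 for P4ha2, 0.52 for Loxl1, 0.37 for Serpinh1 and 0.22 for Plod3 on the log2 scale. At 1 month Loxl1 and Serpinh1 were both at only -0.06. With no scaling Loxl1 turned to 0.01 there, while Lox, P4ha2, Plod3, Serpinh1 and Pcolce stayed lower under every alternative run. The second Pcolce probe set alone gave 0.02 at 1 month. The share of all genes with such opposite signs was not counted. For Lox, P4ha2 and Loxl1 the age difference also had opposite signs, positive in mdx/MMP-2 null and negative in mdx. This is the same quantity (1.30, 0.60 and 0.52) read the other way. The second Lox probe set was negative in both genotypes, at -0.07 for mdx/MMP-2 null against -0.73 for mdx. With 1 array per group none of these differences was tested. The median gap between 2 probe sets of a member for the same difference was 0.22, about the size of the value for Plod3, and the largest was 0.97.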

How the results depend on the processing

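No paired analysis was possible because each group holds 1 array, and no array could be left out for the same reason. A value was said to move if it shifted by over 0.22 on the log2 scale, the median gap between probe sets of a member. With no scaling the members' median was 0.72 at 3 months between genotypes, 0.17 for age in mdx/MMP-2 null and 0.73 for the difference of genotype differences, where the medians of all genes were 0.41, 0.26 and 0.31. With median scaling the age median in mdx/MMP-2 null was 0.11 (all genes 0.19). With the mean of a gene's probe sets 0 members were at or past 2-fold in any comparison. At a 1.5-fold threshold 2 members, Lox and Pcolce, were lower for age in mdx. In limma's additive model 0 members were called under every alternative run, while calls over all genes, 0 in the standard setting, were 1 for genotype and 11 for age with median scaling, 21 and 79 with no scaling, 1 and 1 with the floor at the 60th percentile, and 1 and 130 with the prior that follows signal. The causes were not tested. The mdx array at 3 months was lowest for 7 to 9 members under the 8 alternatives in processing. The sign of the age difference in mdx was kept for 9 of 9 members, that of the genotype difference for 7 at 3 months (not P4ha1 and Plod1) and 5 at 1 month. The probe sets of P4ha1 and Plod1 near the floor limit what can be said of them.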
